A study of Mus musculus with 36 samples.

Results

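The Isg15 conjugation system is described here by 6 genes: Isg15, Uba7, Ube2l6, Herc6, Trim25 and Usp18. They were taken by symbol and Ensembl identifier from the 49585 genes in each deposited table, and all 6 passed the filter on low counts. RNA was measured in 36 libraries of mouse embryonic fibroblasts (MEF), mesenchymal cells grown from mouse embryos and kept in DMEM, from lines with and without the N129D knock-in allele of the kinase gene Tbk1. There were 2 copies of this allele in 3 homozygous (hom) lines, named E1.4, E2.2 and also E2.9, 1 copy in 4 heterozygous (het) lines, named E1.3, E2.8, E2.6 and also E2.5, and 0 copies in 3 wild-type (WT) lines, named E1.5, E2.1 and also E2.7. Every line was sampled untreated, after 4 h of poly(I:C), which imitates viral double-stranded RNA, and after 4 h of antimycin with oligomycin (AO), which block mitochondrial respiration and ATP synthesis. A further 6 libraries were of E1.5, a WT line, grown at high or at low cell density, with 1 library per density and treatment. The submitters' design text speaks of quadruplicates, whereas the hom and WT groups hold 3 lines each and the het groups 4. The labels name the lines and do not say whether each name is a separate embryo. The p-values of genotype comparisons and of unpaired treatment comparisons rest on the spread between these lines. In the fit of all groups that spread was pooled over every genotype and treatment, het lines included. That fit took libraries of the same line as independent. Those of treatments compared within lines measure how the change varied between them, and those of cell density rest on 1 line. The sources used here do not give the strain, the passage number, the dose of each agent or the density at which the 30 unlabelled libraries were grown.

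ISG15 is a small protein of the ubiquitin family that infected or interferon-treated cells attach to other proteins. UBA7 activates it, UBE2L6 carries it, HERC6 is the main ligase that attaches it in mouse cells, and USP18 takes it off again. TBK1 phosphorylates IRF3 after foreign nucleic acid is sensed, IRF3 switches on the interferon beta gene, and secreted interferon then drives the ISG15 genes through a transcription factor complex that includes STAT2 and IRF9. That complex and the IRF proteins bind closely related DNA elements, of which the interferon-stimulated response element is the best known.

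Total counts per library ran between 3689149 and 14879237 where no density was labelled, between 16474021 and 22756884 at high density and between 5391401 and 6307971 at low density. Levels below are CPM, counts scaled by library total and adjusted for library composition. Summed marker levels are the exception, being scaled by library total without that adjustment. Summed fibroblast markers (10 genes, among them Col1a1, Col1a2 and Pdgfra) stood at 4901 to 15956 CPM in all 10 lines. Summed macrophage markers (14 genes, among them Ptprc, Csf1r and Lyz2) stood at 161 to 262 CPM in hom line E2.9 and 38.0 to 61.4 CPM in het line E2.6, with no marker at 0 in either, against 3.06 to 11.3 CPM in the other 8 lines, where 3 to 11 of the 14 markers were at 0. Tbk1 mRNA averaged 37.1 ± 1.55 CPM in hom lines and 38.6 ± 3.59 CPM in WT lines under poly(I:C) (SD, n = 3 each), a difference smaller than the spread between lines; the allele changes the protein, so this level does not check the labels.

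Promoter windows from 250 bases before to 50 bases after the start site were found in RefSeq (GRCm38.p6) for 5 of the 6 genes. The stretches below are printed because all 6 genes were lower in hom than in WT lines, and these stretches hold every match to the 2 elements searched. The first element is GAAANNGAAA, the core of the interferon-stimulated response element, found on either strand in 3.44% of 32851 windows of the same length. The second is AANNGAAA, the core bound by IRF proteins, which overlaps the first element wherever that occurs and was found in 23.9% of the windows. Capitals mark the matches, and each stretch reads 5′ to 3′ along the strand of its gene.
Isg15, chr4:156200855-156200966, minus strand: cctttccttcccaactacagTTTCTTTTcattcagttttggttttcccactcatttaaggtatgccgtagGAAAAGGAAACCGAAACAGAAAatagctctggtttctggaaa
Uba7, chr9:107975520-107975567, plus strand: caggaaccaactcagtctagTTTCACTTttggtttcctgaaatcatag
Trim25, chr11:88999379-88999426, plus strand: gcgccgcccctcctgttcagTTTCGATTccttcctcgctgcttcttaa
The Isg15 window held 3 overlapping matches to the longer element, which start at -78, -72 and -66 relative to the start site, and 1 further match to the shorter element on the other strand at -128. The Uba7 window held 1 match to the shorter element at -27 and the Trim25 window 1 at -4, both on the other strand. The Ube2l6 and Herc6 windows held neither run of letters, which says only that these letters are not in these 300 bases.

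The modifier gene Isg15 (ENSMUSG00000035692, chromosome 4, 156199424 to 156200818, minus strand, GRCm38) was the most abundant of the 6 per base of transcript. In untreated WT lines it stood at 173 ± 43.1 CPM per kilobase of its principal transcript (SD, n = 3), against 31.8 ± 7.34 for Usp18, 13.6 ± 3.32 for Trim25, 9.97 ± 3.16 for Ube2l6, 6.12 ± 1.14 for Herc6 and 2.22 ± 0.289 for Uba7 on the same scale. In untreated hom lines that order differed: Isg15 stood at 9.43 ± 3.21, Trim25 at 4.48 ± 0.584, Ube2l6 at 4.10 ± 1.24, Herc6 at 2.59 ± 0.0514, Uba7 at 0.62 ± 0.167 and Usp18 at 0.401 ± 0.230 CPM per kilobase. By group mean Usp18, the protease gene, was thus next to the top of the per-length order in WT lines and at the bottom in hom lines. In hom lines its mean and that of Uba7 overlapped within their SDs. These values rest on 2, 8 and 7 counts for Usp18 and 19, 11 and 18 for Uba7, which limits the order of these genes.

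Isg15 mRNA was lower in every hom line than in every WT line under each treatment. With poly(I:C), hom lines held 10.6 (E1.4), 35.1 (E2.2) and 31.2 CPM (E2.9), against 384 (E1.5), 304 (E2.1) and 334 CPM (E2.7) in WT lines. Under AO its level was 7.72, 8.14 and 6.11 CPM in the hom lines and 151, 123 and 123 CPM in the WT lines. Without treatment it stood at 4.68, 9.54 and 7.18 CPM in the hom lines and at 168, 117 and 107 CPM in the WT lines. Even the highest hom value under poly(I:C) lay below the lowest untreated WT value. The log2 difference between hom and WT lines was -3.76 ± 0.77 (SE) under poly(I:C), -4.18 ± 0.84 under AO and -4.19 ± 0.81 without treatment. In edgeR's quasi-likelihood test with Benjamini-Hochberg adjustment over 13364 genes the adjusted p was 0.0408, 0.158 and 0.0883 in that order. Isg15 stood higher with poly(I:C) than without in all 10 lines, by 1.17 to 2.12 on the log2 scale in hom lines, 0.71 to 2.08 in het lines and 1.19 to 1.64 in WT lines.

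Uba7, the gene of the activating enzyme (ENSMUSG00000032596, chromosome 9, 107975505 to 107984060, plus strand), was expressed at low levels. With poly(I:C) its level was 3.13, 3.14 and 2.49 CPM in hom lines and 12.5, 10.3 and 9.15 CPM in WT lines, in the line order given for Isg15. Without treatment it stood at 2.34, 1.38 and 2.27 CPM in hom lines and at 8.10, 6.84 and 6.30 CPM in WT lines. Under AO its hom values were 1.49, 0.53 and 0.57 CPM, from 6, 2 and 3 counts, which limits their precision. Its WT values under AO were 3.69, 3.59 and 6.01 CPM. The groups did not overlap under any treatment, and under AO each line of every genotype stood below its own untreated value. No difference between hom and WT lines passed the test for Uba7: it was -1.86 ± 0.78 under poly(I:C) (edgeR adjusted p = 0.948), -2.35 ± 0.92 under AO (0.420) and -1.82 ± 0.78 untreated (0.976).

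Ube2l6, which encodes the carrier enzyme (ENSMUSG00000027078, chromosome 2, 84798828 to 84810335, plus strand), stood at 7.17, 8.22 and 9.08 CPM in hom lines under poly(I:C), against 29.4, 47.0 and 56.9 CPM in WT lines. Without treatment the hom values were 8.62, 5.27 and 5.29 CPM and the WT values 11.1, 14.7 and 20.9 CPM. In WT lines the poly(I:C) and untreated values were separate, whereas in hom lines they overlapped: line E1.4 was lower with poly(I:C) than without. The 3 hom lines ranged from 3.68 to 6.23 CPM under AO and the 3 WT lines from 11.1 to 16.6 CPM. The log2 difference between hom and WT lines was -2.44 ± 0.79 under poly(I:C) (edgeR adjusted p = 0.413), -1.47 ± 0.83 under AO (0.511) and -1.27 ± 0.78 untreated (0.976).

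Herc6, the gene of the main mouse ISG15 ligase (ENSMUSG00000029798, chromosome 6, 57581000 to 57664632, plus strand), stood at 12.8, 18.9 and 14.2 CPM in hom lines under poly(I:C), against 70.6, 65.7 and 78.0 CPM in WT lines. Untreated hom lines held 12.6, 12.4 and 12.1 CPM, against 35.4, 25.6 and 26.5 CPM in untreated WT lines. The hom lines thus lay within 10.2 to 18.9 CPM under all 3 treatments, AO included, whereas WT lines under poly(I:C) lay above all WT values under AO, which were 32.8 to 37.4 CPM, and without treatment. The log2 difference between hom and WT lines was -2.23 ± 0.57 under poly(I:C) (edgeR adjusted p = 0.114), -1.37 ± 0.58 under AO (0.425) and -1.24 ± 0.57 untreated (0.976). The gene shares part of its length with Gm45193, which held 93 counts over all 36 libraries; no gene overlapping a member held more.

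Trim25 (ENSMUSG00000000275, chromosome 11, 88999376 to 89020293, plus strand) encodes a ligase best known for adding ubiquitin in the RIG-I pathway and also reported to attach ISG15. Hom lines held 39.7, 39.9 and 60.2 CPM with poly(I:C), and WT lines 140, 272 and 257 CPM. Without treatment it stood at 21.7, 25.2 and 28.2 CPM in hom lines and at 59.7, 96.1 and 71.7 CPM in WT lines. Trim25 was the 1 member whose hom values under poly(I:C) overlapped the untreated WT values, through hom line E2.9 and WT line E1.5. Under AO the hom lines ranged from 20.8 to 22.2 CPM and the WT lines from 46.0 to 82.1 CPM. The log2 difference between hom and WT lines was -2.26 ± 0.56 under poly(I:C) (edgeR adjusted p = 0.101), -1.72 ± 0.58 under AO (0.419) and -1.60 ± 0.56 untreated (0.976).

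Usp18 (ENSMUSG00000030107, chromosome 6, 121245906 to 121270917, plus strand) encodes the protease that removes ISG15 and also dampens signalling at the interferon receptor. It varied most of the 6 genes, with an SD of log2 CPM of 2.84 over the 30 libraries, against 2.05 for Isg15 and 1.04 to 1.29 for the other 4. Hom lines held 2.74, 2.9 and 7.66 CPM with poly(I:C), from 21, 12 and 43 counts, and WT lines 169, 220 and 193 CPM. Without treatment it stood at 0.25, 1.0 and 0.88 CPM in hom lines, from 2, 8 and 7 counts, and at 65.4, 62.2 and 41.5 CPM in WT lines. Under AO the hom lines held 1.0, 1.05 and 0.57 CPM, from 4, 4 and 3 counts, and the WT lines 60.6, 54.9 and 66.5 CPM. Hom values lay far below WT values under each treatment, and the hom values without poly(I:C) rest on 8 counts or fewer per library. The log2 difference between hom and WT lines was -5.45 ± 1.21 under poly(I:C) (edgeR adjusted p = 0.0557), -6.13 ± 1.51 under AO (0.419) and -6.28 ± 1.41 untreated (0.320).

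**Figure D1:**
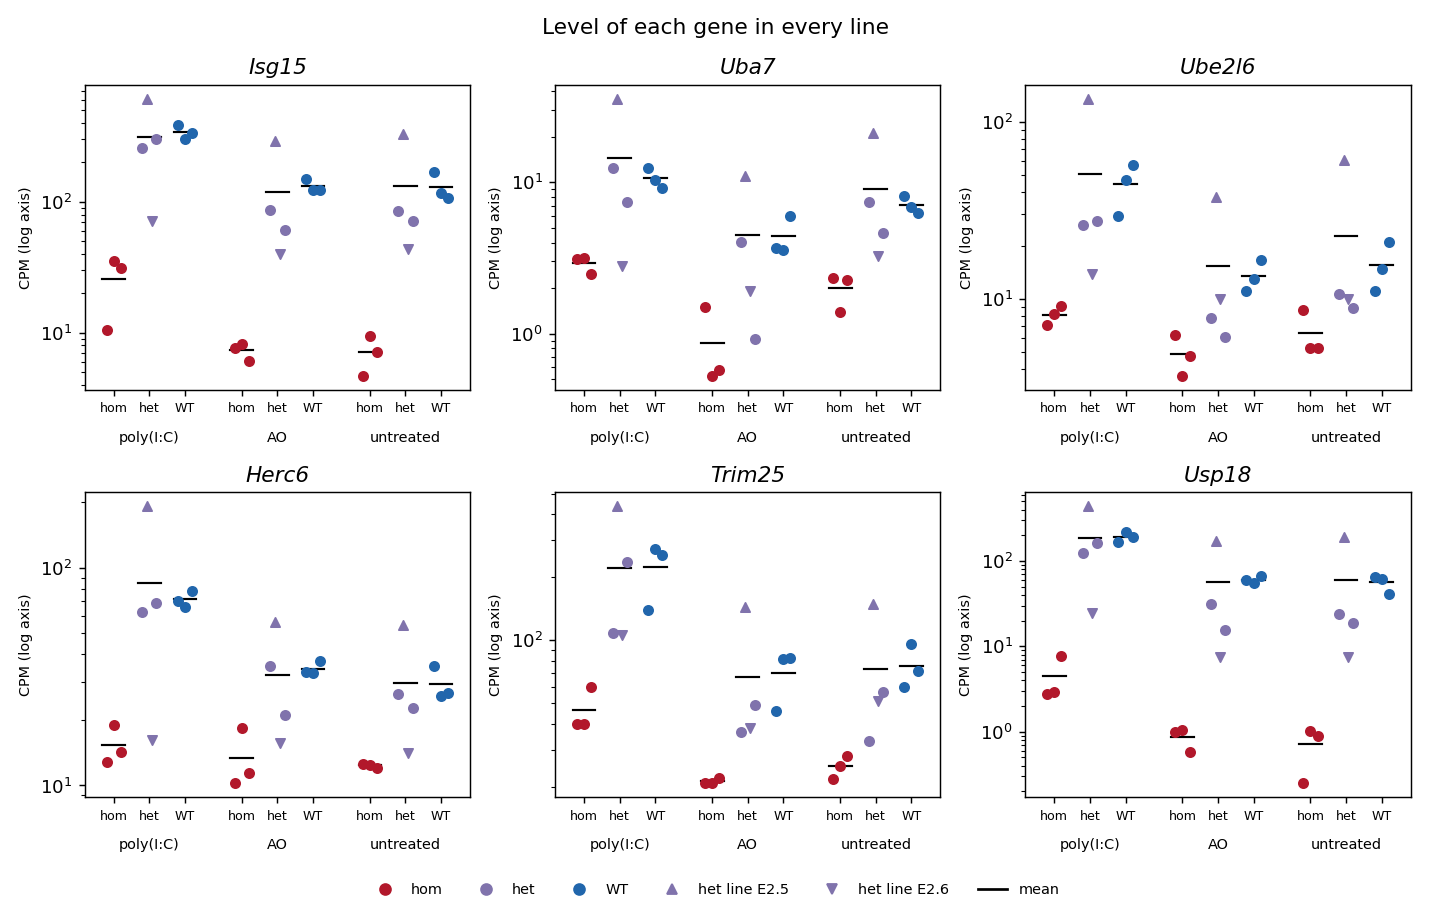
Level of each of the 6 genes in every line, in CPM on a log axis, by treatment and genotype (hom in red, het in purple, WT in blue; the black bar is the group mean). Hom points lie below all WT points in every panel and treatment, and het line E2.5 (upward triangle) is the highest het line throughout.

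Homozygous N129D was then set against WT for the 6 genes together. All 6 were lower in every hom line than in every WT line under poly(I:C), under AO and without treatment; 5.46%, 5.19% and 4.78% of all genes tested showed that pattern in the same order. Hom lines under poly(I:C) lay wholly below untreated WT lines for 5 of the 6 genes, a pattern found in 15.9% of all genes. The median log2 difference over the 6 genes was -2.35 under poly(I:C), -2.04 under AO and -1.71 untreated, beside medians of 0.02, 0.01 and 0.01 over all genes tested. In edgeR's test 1 of 6 genes, Isg15, passed under poly(I:C), where 0.187% of all genes passed. No member passed under AO, where 0% of all genes passed, or without treatment, where 0.015% did. At an unadjusted p under 0.05 the members numbered 6, 5 and 5, and with DESeq2 4, 2 and 2 passed in the same order. How many of all genes passed with DESeq2 under poly(I:C) is given with the alternatives at the end. The other shares of all genes at these settings are not given here, so those counts only describe the members.

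The call for Isg15 under poly(I:C) was lost when any 1 of the 6 hom and WT lines was left out (adjusted p = 0.147 to 0.460) and when lines E2.6 and E2.9 were left out together (0.0551), and over all alternatives its adjusted p ranged from 0.000151 to 0.460. With the hom and WT poly(I:C) groups fitted alone all 6 genes passed, with edgeR adjusted p from 0.000962 (Herc6) to 0.0381 (Trim25). How many of all genes passed in that fit is given with the alternatives at the end. With the line as a random block, which accounts for the pairing of libraries by line, Isg15, Trim25 and Usp18 passed (limma adjusted p = 0.00347, 0.00945 and 0.0471), where 0.501% of all genes did. Hom line E2.9, the one with macrophage transcripts, lay between the other hom lines for Isg15 and Herc6 under poly(I:C), was the lowest for Uba7 and was the highest for Ube2l6, Trim25 and Usp18; the part of these cells was not tested. In bulk RNA, fewer cells expressing a gene and less of its RNA per cell cannot be told apart.

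**Figure D2:**
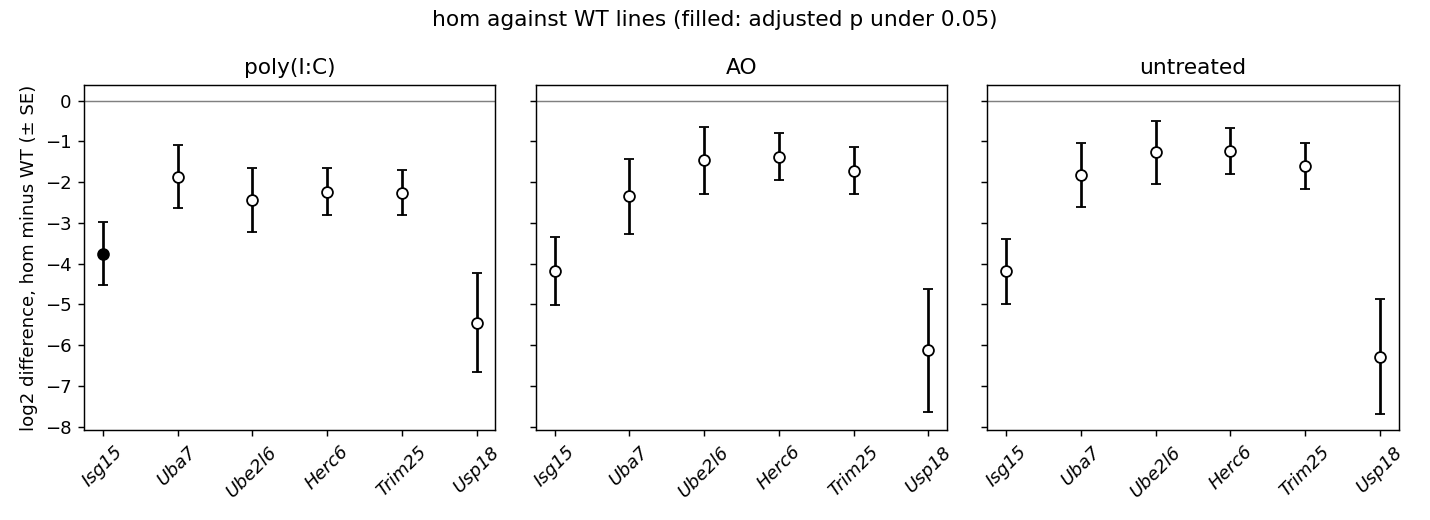
Log2 difference between hom and WT lines (hom minus WT) with its SE for each gene, under poly(I:C), under AO and untreated. All 18 differences are below 0, Usp18 and Isg15 lie lowest in each panel, and the filled point, Isg15 under poly(I:C), is the one with an adjusted p under 0.05.

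Poly(I:C) was next compared with no treatment within each genotype. Isg15, Herc6, Trim25 and Usp18 stood higher with poly(I:C) than without in 10 of 10 lines, Uba7 in 9, all but het line E2.6, and Ube2l6 in 9, all but hom line E1.4. The share of all genes with such a pattern is not given here, so these counts only describe the members. In WT lines the log2 difference was 1.78 ± 0.97 for Usp18, 1.55 ± 0.55 for Trim25, 1.52 ± 0.75 for Ube2l6, 1.38 ± 0.69 for Isg15, 1.29 ± 0.55 for Herc6 and 0.59 ± 0.73 for Uba7. The fit of all 9 groups did not use the pairing. In WT lines, where 3.17% of all genes passed, 0 of 6 members passed its edgeR test. At an unadjusted p under 0.05 there were 2, and with DESeq2 0. In het lines 1 of 6 passed, Trim25 (1.62 ± 0.47, adjusted p = 0.0488), where 4.63% of all genes did; in hom lines 0 of 6 passed (1 unadjusted, 0 with DESeq2), where 1.26% did. The Trim25 call in het lines was lost without line E1.3, E2.6 or E2.8 (adjusted p = 0.114, 0.0557 and 0.278), while without line E2.5 Isg15, Ube2l6, Usp18 and Trim25 passed. With only the compared groups fitted, also without the pairing, all members but Uba7 passed in WT lines. Their edgeR adjusted p ran from 0.00188 (Usp18) to 0.0172 (Ube2l6), and that of Uba7 was 0.103. The share of all genes passing in that fit is not given here, so this count only describes the members. No member passed in het or hom lines in such a fit.

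Libraries of the same line deviated together across treatments, so the comparison was also made within lines. With the line as a fixed block, 5 of 6 genes rose with poly(I:C) in WT lines, all but Uba7, where 15.5% of all genes passed in either direction. The edgeR adjusted p ran from 1.18e-06 (Trim25) to 0.000925 (Herc6), and that of Uba7 was 0.125. The same 5 rose in het lines, where 17.7% of all genes passed, with log2 differences of 1.16 ± 0.18 for Ube2l6 to 2.12 ± 0.27 for Usp18. In hom lines 3 of 6 rose, where 9.53% of all genes passed: Usp18 by 2.62 ± 0.72 (adjusted p = 0.0280), Isg15 by 1.77 ± 0.30 (0.00129) and Trim25 by 0.89 ± 0.16 (0.00204). Ube2l6 (0.33 ± 0.26, adjusted p = 0.461), Herc6 (0.28 ± 0.27, 0.565) and Uba7 (0.52 ± 0.35, 0.390) did not pass in hom lines. With the line as a random block in limma none of the 6 passed in hom lines: the adjusted p was 0.481 for Usp18, 0.123 for Isg15 and 0.101 for Trim25, while the 5 calls in WT lines and the 5 in het lines held.

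Whether the response itself differed between genotypes was tested as the difference of the poly(I:C) responses. The response in hom lines minus that in WT lines was -1.17 ± 1.09 on the log2 scale for Ube2l6, -0.99 ± 0.79 for Herc6, -0.66 ± 0.77 for Trim25, -0.05 ± 1.17 for Uba7, 0.44 ± 1.03 for Isg15 and 0.83 ± 1.91 for Usp18. No member passed in edgeR (0 at an unadjusted p under 0.05, 0 with DESeq2), and 0% of all genes did. Within lines the same difference was -1.18 ± 0.33 for Ube2l6, -1.0 ± 0.35 for Herc6 and -0.63 ± 0.22 for Trim25; the adjusted p of these 3 was 0.771, 0.814 and 0.814 although the unadjusted p was 0.00173, 0.00950 and 0.00996. The median of the het response minus the WT response was -0.02 over the 6 genes, and again 0 members and 0% of all genes passed, at an unadjusted p under 0.05 and with DESeq2 also 0 members.

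**Figure D3:**
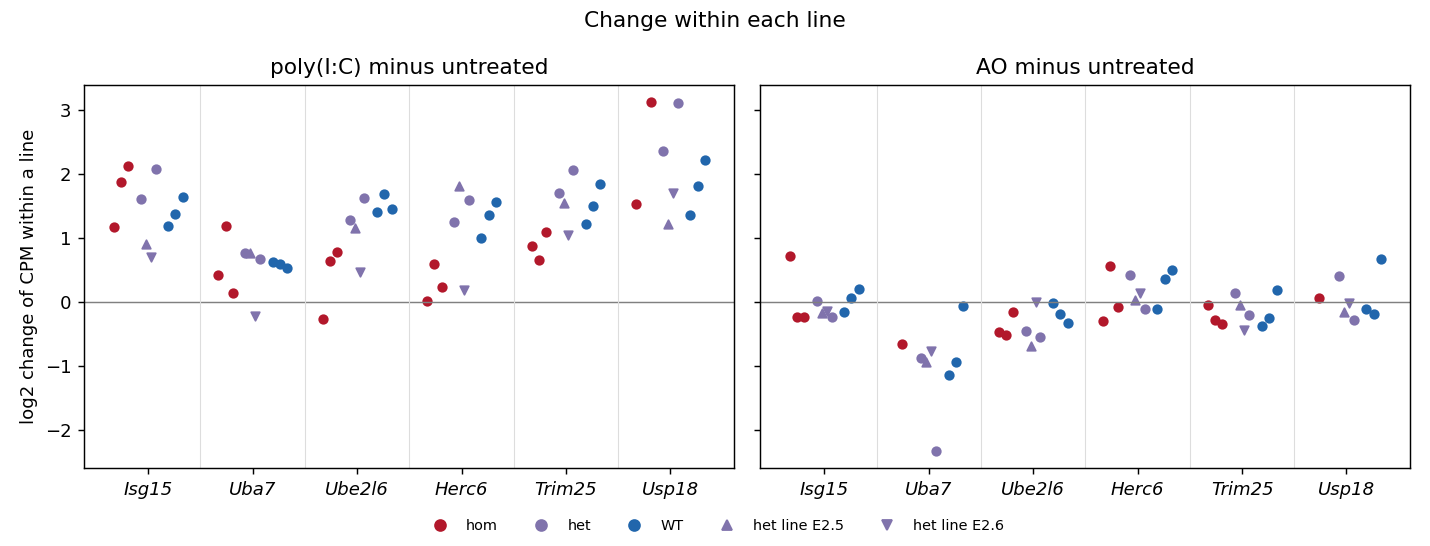
Change of log2 CPM within each line, poly(I:C) minus untreated on the left and AO minus untreated on the right, coloured by genotype; lines with 3 counts or fewer in either library are not drawn. Under poly(I:C) most points lie above 0, and the hom points for Ube2l6, Herc6 and Trim25 lie below the WT points. Under AO the Uba7 points all lie below 0.

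The 4 het lines had a wider ratio of highest to lowest line than the hom or WT lines in all 18 pairs of gene and treatment. Such a ratio tends to widen with the number of lines, and the hom and WT groups held fewer. The het lines overlapped the WT lines for all 6 genes under each treatment. With poly(I:C), Isg15 stood at 260 CPM in het line E1.3, 613 CPM in E2.5, 71.6 CPM in E2.6 and 300 CPM in E2.8, against 304 to 384 CPM in WT lines. Untreated, the same lines held 85.3, 328, 43.7 and 71.2 CPM, against 107 to 168 CPM in WT lines. Usp18 stood at 123, 438, 24.7 and 162 CPM in these lines under poly(I:C) and at 23.9, 189, 7.57 and 18.8 CPM untreated, while WT lines held 169 to 220 CPM and 41.5 to 65.4 CPM under the same conditions. Line E2.5 was the highest het line, and above every WT line, in all 18 pairs of gene and treatment, and line E2.6 was the lowest het line in 13 of them. The 18 pairs share these lines and are not independent.

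The order of the other het lines differed between genes and treatments. Trim25 stood at 109, 436, 106 and 237 CPM under poly(I:C) and at 33.2, 150, 51.4 and 56.4 CPM untreated, in the het line order given for Isg15. Ube2l6 stood at 26.1, 135, 13.8 and 27.6 CPM under poly(I:C), Herc6 at 62.4, 191, 16.1 and 68.6 CPM, and Uba7 at 12.5, 35.7, 2.8 and 7.37 CPM. Across genes and treatments the highest het line stood 3.58 to 25 times above the lowest het line, whereas the highest WT line stood 1.14 to 1.95 times above the lowest WT line. In 5 of the 18 pairs a het line lay below the highest hom line.

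Between het and WT lines no member passed edgeR's test under poly(I:C), AO or no treatment (0 members at an unadjusted p under 0.05 and 0 with DESeq2 each time; 0%, 0% and 0% of all genes passed). The median log2 difference over the 6 genes was 0.10 under poly(I:C), -0.09 under AO and 0.04 untreated, and without line E2.5 it was -0.63, -0.84 and -0.68. Line E2.5 also held the most epithelial marker RNA, summed over 6 markers with 1 of 6 at 0. The sum was 68.5 to 84.4 CPM, against 2.46 to 33.9 CPM in the other 9 lines. Cdh1, Krt8, Krt14 and Krt18 reached their highest levels in line E2.5. Epcam stood at 0.46 to 0.92 CPM there and reached 1.66 CPM in line E1.3, and Krt5 had no counts in line E2.5. Whether epithelial cells were present, and their part in its levels, was not tested. The macrophage markers of line E2.6, at 38.0 to 61.4 CPM, stood beside its low values for the members, and their part was not tested. The 4 markers of plasmacytoid dendritic cells, which are known for high interferon output, summed to 440 to 479 CPM in line E2.5, against 88.5 to 327 CPM in the other 9 lines. Of these, Siglech had 1 count and Ccr9 3 counts over the 30 libraries, whereas Tcf4 and Bst2, itself an interferon-stimulated gene, had counts in all 30, and Bst2 stood at 322 to 345 CPM in line E2.5; their part in its levels was not tested.

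With AO, Uba7 stood lower than without treatment in 10 of 10 lines, and the other 5 genes moved less. How many of all genes stood lower in all lines is not given here. In WT lines the log2 difference with AO was -0.68 ± 0.74 for Uba7 and between -0.19 and 0.24 for the other 5 genes; in het lines it was -1.0 ± 0.64 and between -0.54 and 0.13, and in hom lines -1.21 ± 0.95 and between -0.38 and 0.25. No member passed edgeR's test in WT, het or hom lines (0 members at an unadjusted p under 0.05 and 0 with DESeq2 in each), although 7.65%, 11.1% and 13% of all genes passed. With the line as a fixed block Uba7 fell in het lines by 1.08 on the log2 scale (SE 0.25, adjusted p = 0.00238), where 27.4% of all genes passed; with a random block the call was lost (-1.07 ± 0.46, limma adjusted p = 0.0872). It did not pass in WT lines (-0.68 ± 0.27, adjusted p = 0.0760; 22.8% of all genes passed) or in hom lines (-1.22 ± 0.48, 0.0606; 29.4%). A difference of the AO response between genotypes was not tested.

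Ranked by median level, the 9 groups of genotype and treatment fell in a like order for each gene. WT lines under poly(I:C) came first and het lines under poly(I:C) came next for all 6 genes, and hom lines under AO or untreated came last. Most neighbours in that order overlapped: 6 of 8 neighbouring pairs for Isg15 and for Trim25, 7 of 8 for Uba7, Herc6 and Usp18, and 8 of 8 for Ube2l6. Hom lines under poly(I:C) lay wholly above untreated hom lines for 5 of 6 genes, all but Ube2l6, a pattern found in 8.49% of all genes, and wholly above hom lines under AO for 5 of 6, all but Herc6, found in 14.1% of all genes. Among neighbours in the order, hom lines under poly(I:C) lay wholly below het lines under AO for Isg15 and wholly below WT lines under AO for Uba7. For Trim25 het lines under poly(I:C) lay wholly above WT lines under AO.

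Cell density was examined in WT line E1.5. All 6 genes rose with density: their log2 difference between high and low density, fitted over the 3 treatments, was 2.48 ± 0.08 for Usp18, 2.34 ± 0.16 for Uba7, 1.70 ± 0.07 for Isg15, 1.65 ± 0.12 for Ube2l6, 1.5 ± 0.15 for Herc6 and 1.24 ± 0.07 for Trim25. All 6 passed edgeR's test (adjusted p from 9.90e-11 for Usp18 to 0.000134 for Herc6), where 17.8% of 12229 genes passed in either direction. These p-values measure the scatter among libraries of this single line, not a spread between lines. Isg15 with poly(I:C) stood at 188, 380 and 580 CPM at low density, with no density label and at high density, and untreated at 79.8, 167 and 252 CPM. Usp18 stood at 62.5, 167 and 338 CPM under poly(I:C) and at 20.9, 65.1 and 112 CPM untreated in the same order. The library without a density label lay between the other two in all 18 pairs of gene and treatment. These pairs share the libraries of 1 line and are not independent, and the share of all genes in that order is not given here.

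The ratio of poly(I:C) to untreated levels was also read at each density, without a test. Isg15 stood 2.35 times above untreated at low density, 2.28 times with no density label and 2.30 times at high density, and Usp18 3.0, 2.57 and 3.01 times. Herc6 stood 1.84, 1.98 and 3.07 times above untreated in the same order. Ifnb1 under poly(I:C) held 8, 173 and 700 counts, which is 1.62 CPM (95% Poisson interval 0.699 to 3.19), 22.5 CPM (19.2 to 26.1) and 43.6 CPM (40.4 to 47.0); these intervals cover counting error only. With 1 line and 1 library per density and treatment, these values carry no replicate check of density, whose libraries also differ in depth. The density of the libraries behind the genotype comparison is not labelled, and its part in the difference between hom and WT lines was not tested.

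**Figure D4:**
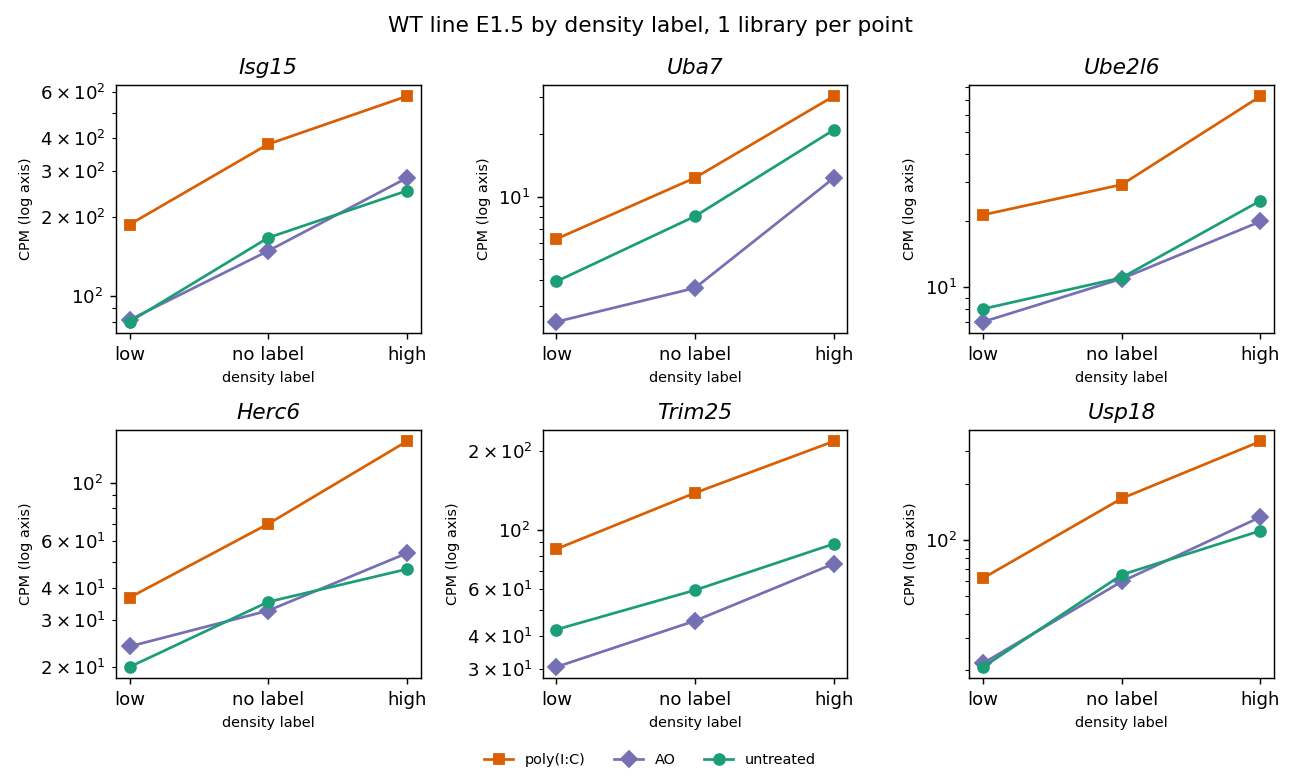
CPM of each gene in WT line E1.5 on a log axis at low density, with no density label and at high density, for poly(I:C), AO and untreated cells, with 1 library per point. Every gene is highest at high density and lowest at low density under each treatment, and Isg15 spans 188 to 580 CPM under poly(I:C).

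The genes upstream of the system were read from a list of 12: Ifnb1, its receptor chains, JAK kinases, STAT and IRF factors and the inhibitor Socs1. Ifnb1, the interferon beta gene, had no counts in the 10 untreated libraries without a density label, which allows up to 0.0445 CPM over them. The untreated library of line E1.5 at high density held 1 count. Under AO Ifnb1 held 12 counts in 5 of 10 libraries without a density label, all of WT or het lines. With poly(I:C), Ifnb1 stood at 0.26, 0 and 0.53 CPM in the hom lines, from 2, 0 and 3 counts. It stood at 18.9, 50.7, 7.41 and 10.8 CPM in the het lines and at 22.7, 9.33 and 23.6 CPM in the WT lines. Among het lines Ifnb1 was highest in E2.5 and lowest in E2.6, as the members mostly were. Between hom and WT lines under poly(I:C), 2 of 12 genes fell: Ifnb1 (-5.94 ± 0.92, edgeR adjusted p = 0.0253) and Irf9, the DNA-binding part of the interferon-activated complex (-2.35 ± 0.48, 0.0408). Stat2, its partner, differed by -2.67 ± 0.59 (0.0557), and the list's median was -1.68, beside 0.02 for all genes. Of all genes tested, 0.187% passed between hom and WT lines under poly(I:C). With poly(I:C) Ifnb1, Irf1 and Socs1 rose in WT and in het lines. In hom lines 0 of 12 genes passed (2 at an unadjusted p under 0.05, 1 with DESeq2). Of all genes tested, 3.17% passed in WT, 4.63% in het and 1.26% in hom lines.

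Relatives outside the interferon system were read for the same comparison. Of 17 genes for ubiquitin, other ubiquitin-like proteins and other activating, carrier and HERC enzymes, 0 passed between hom and WT lines under poly(I:C) (0 at an unadjusted p under 0.05, 0 with DESeq2), and their median log2 difference was -0.02. Among those with the smallest p were Uba2, which encodes part of the activating enzyme for SUMO (-0.15 ± 0.09), and Ufm1, another ubiquitin-like modifier (-0.12 ± 0.15), each with an adjusted p of 1. Of 9 other enzymes reported to act on ISG15 or its conjugates, 0 passed (0 unadjusted, 0 with DESeq2), with a median of 0.02; the 3 with the smallest p were Usp2 (0.72 ± 0.37), Ube2e1 (-0.30 ± 0.17) and Usp14 (-0.15 ± 0.10), each with an adjusted p of 1. The median over the 6 members in the same comparison was -2.35, and no test was made between these lists.

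Genes of 21 proteins reported to carry ISG15 were also read between hom and WT lines under poly(I:C). Of these, 4 fell: Mx2, a dynamin-like antiviral GTPase (-6.45 ± 1.2, edgeR adjusted p = 0.0253), Ifit3 (-5.30 ± 1.08, 0.0399), Ifit1 (-4.93 ± 0.88, 0.0253), both of the IFIT family of antiviral proteins, and Ifih1, which encodes the sensor MDA5 (-3.29 ± 0.56, 0.0211). These 4 are themselves interferon-stimulated genes. Reads of Ifit3 may be shared with its near-identical copy Ifit3b, so its value is less certain. The list's median log2 difference was -0.03, and its other 17 genes did not pass. Of all genes tested, 0.187% passed in this comparison.

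The genes whose pattern over the 30 libraries was nearest to each member were found by the root mean square difference of log2 CPM, each gene centred on its own mean. Nearest to Isg15 were Ddx60 (0.41), Xaf1 (0.50) and Gbp3 (0.54), and nearest to Usp18 were Oasl2 (0.53), Irf7 (0.60) and Ifi44 (0.66); the median over all genes was 2.06 for Isg15 and 2.82 for Usp18. Nearest to Herc6 were Ifitm3 (0.35), Ncoa7 (0.37) and Eif2ak2 (0.38), with a median of 1.10 over all genes. Ube2l6 and Trim25 were each among the other's 3 nearest genes (0.44), beside Trim12a (0.42) and Tap1 (0.45) for Ube2l6 and Tap1 (0.44) for Trim25. Nearest to Uba7 were Parp12 (0.51), Ube2l6 (0.55) and Parp10 (0.56). Isg15 and Usp18 differed by 0.84 from each other and by 1.13 to 1.91 from the other 4 members, which differed from one another by 0.44 to 0.74. These distances share libraries and lines, describe the same spread as the comparisons above, and carry no test.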

How the data were processed

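The authors deposited expected counts per gene, with 1 table for each library. STAR, RSEM and mm10 are named without versions, per the submitters' processing notes; the strand setting is not given in the sources used here. Libraries were made with the TruSeq Stranded mRNA kit from 500 ng of total RNA, per the labels' protocols. Between 6.11% and 13.4% of values per library were not whole, as estimated counts need not be. Of 49585 identifiers, 49326 matched GENCODE vM21.

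Values were rounded. For the 30 libraries with no density label, edgeR 4.0.16 (R 4.3.3) was used with TMM, filterByExpr (minimum count 10, total 15), 1 coefficient per group and robust estimation, and a gene passed at an adjusted p under 0.05 over all 13364 genes. The 9 libraries of line E1.5 had a model of density beside treatment (12229 genes). Libraries of 1 line are paired by the line name in the labels; their deviations from group means correlated by 0.342 to 0.765 over 30 pairs. The line was therefore also fitted as a fixed block and as a random block in limma 3.58.1. Further alternatives were RLE factors, no filter, DESeq2 1.42.0, a covariate for the prefix of each line name, a fit of only those groups being compared, and each line left out. Simulated counts were used to test the code. Chosen after seeing the data were a fit without robust estimation and one without lines E2.6 and E2.9. CPM use TMM-adjusted library sizes, with SD over lines, except that summed markers use unadjusted library totals. The SE of an edgeR difference is its size divided by the square root of its F statistic. A count of 0 was given a limit of 3 counts over the libraries named, which covers counting error only.

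The members, the lists and the rule for named genes (the members, the 3 genes of each list with the smallest p between hom and WT lines under poly(I:C), the 3 nearest genes per member and Ifnb1) were chosen with earlier results of these data known. List genes other than these 3 are named where a count of 5 or fewer passed; some genes that the rule picks are not reported here. Endothelial markers (6 genes, 4.24 to 35.2 CPM summed) and neural markers (5 genes, 122 to 522 CPM) were also read.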

Additional observations from a re-analysis of the deposited data

Results flagged for a closer look

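In 7 of the 18 groups of 4 het lines, 1 line stood far from the other 3, and each time it was line E2.5 at the top. Its level was 328 CPM for Isg15 untreated, 60.6 CPM for Ube2l6 untreated, 135 CPM for Ube2l6 under poly(I:C) and 37.7 CPM for Ube2l6 under AO. It was 189 CPM for Usp18 untreated, 170 CPM for Usp18 under AO and 145 CPM for Trim25 under AO. In each, the gap in CPM to the next het line, as a part of the range of the 4 lines, exceeded Dixon's 95% critical value. For normally distributed values, chance exceeds that value in about 1 of 20 groups. Whether the CPM of these lines are so distributed was not tested, so that rate is not applied to them. The share of all genes with such a gap is not given here, so these 7 cases only describe the members. The 18 groups share lines and are not independent. The groups of 3 hom or WT lines were too small for this rule.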

How the results depend on the processing

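The direction of the difference between hom and WT lines held for all 6 genes, under each treatment, in all 14 alternatives run; how many passed did not. Under poly(I:C), where 1 gene passed, 6 passed with the compared groups alone, 4 with DESeq2, 3 with the line name prefix as a covariate, 3 with the random replicate block, 2 without robust estimation, 0 with no filter, 0 without lines E2.6 and E2.9, and 0 (lowest and highest) with 1 line left out. Untreated, where 0 passed, 4 passed with the compared groups alone and 2 with DESeq2; under AO, where 0 passed, 2 passed in each of these. For poly(I:C) against untreated, 5 of 6 passed in WT lines with either block and with the compared groups alone, against 0 in the fit of all groups. The last 2 of these fits are both unpaired. How many of all genes passed with the compared groups alone is not given for this comparison. In het lines, against 1, 5 passed with either block, 2 with DESeq2, 0 with no filter, 0 with those groups fitted alone, and 0 to 4 with 1 line left out. In hom lines 3 passed with the fixed block, against 0. Under AO 1 passed in het lines with the fixed block, against 0. The blocks changed no other count of members passing. Differences near 0 changed sign. With 1 line left out, the AO difference was -0.0890 to 0.123 for Isg15 and -0.175 to 0.237 for Usp18 in WT lines, -0.141 to 0.130 for Usp18 in het lines, and -0.262 to 0.193 for Isg15, -0.202 to 0.254 for Herc6 and -0.287 to 0.686 for Usp18 in hom lines. The AO difference of Usp18 in het lines was 0.000357 with the fixed block and 0.0817 with the random block. The Uba7 response in hom minus WT lines was -0.283 to 0.175 with 1 line left out and 0.157 without lines E2.6 and E2.9. Between densities all 6 genes passed in each alternative but the one of no density label against low density, where 4 did. Over all genes, 25 passed between hom and WT lines under poly(I:C), against 107 with DESeq2, 112 with the compared groups alone, 67 with the random block, 52 with the prefix as a covariate, 5 with no filter and 0 to 3 with 1 line left out. Counts of 2 to 8 per library for Usp18 in untreated hom lines, and of 3 to 4 under AO, limit its precision there. Counts of 2 to 6 do so for Uba7 in hom lines under AO. The cause was not tested for any of these changes.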
